A study of Mus musculus with 12 samples.

Results

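The 8 libraries from young mice, of 12 in the series, were compared gene by gene. The question was whether haematopoietic stem cells (HSCs) of Cd38 knockout mice respond more or less to cytokines than wild-type HSCs do. The libraries were chosen by age, and they form 4 groups of 2 libraries. Fresh WT and fresh KO are HSCs taken from wild-type mice and from Cd38 knockout mice of 2 months and not cultured. Stimulated WT and stimulated KO are HSCs of the same genotypes and age after 24 hours outside the body with cytokines, which the labels do not name. All cells had been sorted as lineage-negative, c-Kit-positive and Sca-1-positive, a gate that holds multipotent progenitors beside stem cells. The knockout is labelled only as KO, with no allele or cell type of deletion given, and the labels do not say whether 2 libraries of a group came from separate animals, so p-values measure the spread between these libraries. Library numbers follow the sample titles, 1 and 2 for WT and 3 and 4 for KO.

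The response of a genotype is the log2 ratio of stimulated to fresh cells. The interaction is the response in KO minus the response in WT, which equals the genotype difference in stimulated cells minus that in fresh cells. It is positive where a gene rose more, or fell less, in KO. Levels are in CPM, read counts relative to the size of the library. The libraries are 3′ end libraries, so a transcript gives about one read whatever its length. Changes are log2 ± SE, and adjusted p-values are from edgeR's quasi-likelihood test over 10786 genes with Benjamini-Hochberg adjustment. The fit uses a shared estimate of a gene's spread for all groups. Fresh replicates agreed less than stimulated ones, as given below, and the SE does not show that difference. A gene is said to have risen or fallen where that value was under 0.05.

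CD38 sits in the cell membrane, where it breaks down NAD and produces cyclic ADP-ribose, a messenger that releases calcium from internal stores. HSCs at rest divide rarely and express a set of transcription factors, receptors and adhesion molecules that differentiating cells lose. Cytokines in culture drive them into the cell cycle, and cells that divide and differentiate lower this set while genes of the myeloid and lymphoid lineages rise.

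Total counts were 1600155 to 1963635 in the 4 fresh libraries and 2692245 to 3249721 in the 4 stimulated ones, with 9116 to 9993 and 13163 to 13450 genes detected. The fresh libraries were much less alike. Over genes, log2 levels correlated at 0.709 between the fresh WT replicates, 0.684 between the fresh KO replicates and 0.682 to 0.708 between fresh WT and fresh KO, against 0.959, 0.955 and 0.932 to 0.954 for the stimulated libraries. Depth and stimulation cannot be told apart. Fresh WT replicate 1 had no Xist count and 212 CPM over Y-linked genes, while the other 7 libraries had 322 to 777 CPM of Xist and at most 6.98 CPM over Y-linked genes. Markers of the sort and of HSCs summed to 2345 to 2588 CPM in fresh and 1888 to 2015 CPM in stimulated libraries, with none of 10 at 0 throughout. This sum joins opposite changes. In WT, Cd34 went from 360 and 415 to 876 and 829 CPM and Flt3 from 7.98 and 25.7 to 143 and 250. The other markers were lower on average in stimulated than in fresh WT, such as Hlf, from 1005 and 959 to 347 and 467 CPM. Neutrophil markers summed to 5172 to 10060 CPM in fresh and 795 to 1513 CPM in stimulated libraries, with Ly6g at 0 in all 8. T cell markers reached at most 14.1 CPM, and Cd3e, Cd4 and Cd8a were at 0. The part of these levels in the results was not tested. In such bulk samples, fewer cells of a type and less RNA per cell cannot be told apart.

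Cd38, on chromosome 5 from 43868809 to 43912374 (GRCm38), was counted in KO as well as WT cells. It stood at 18.6 and 25.7 CPM in fresh WT, 65.8 and 33.4 in fresh KO, 1.04 and 8.95 in stimulated WT against 3.78 and 2.46 in stimulated KO. Both fresh groups lay above both stimulated groups. Both fresh KO libraries lay above both fresh WT libraries, and the genotypes overlapped in stimulated cells. The interaction was -1.83 ± 1.56, with adjusted p = 0.782 by edgeR, and it turned to 0.38 without stimulated WT replicate 2. A 3′ tag can lie outside the deleted part of a gene, so this level checks nothing about the labels.

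No gene passed the test of the interaction: 0 of 10786 genes (0%) had an adjusted p under 0.05, and the smallest adjusted p was 0.406. At an unadjusted p under 0.05 there were 1031 genes (9.56%), 643 with a positive (5.96%) and 388 with a negative interaction (3.6%). The median interaction over all genes was 0.08 and its median SE was 1.32, so a gene of typical precision needed an interaction of several log2 units to stand out. DESeq2 called 182 genes, 127 positive and 55 negative. Of these, 113 (62.1%) had at most 3 counts over a fresh group, against 16.3% of all genes. The other 69 had more than 3 counts over every group. Among them were Ndufa7 (adjusted p = 0.000253 by DESeq2) and Gng11 (0.00375), both described below with edgeR's values. The fresh libraries carried most of the spread. The genotype difference was larger in fresh than in stimulated cells for 8469 genes (78.5%), with a median size of 0.80 in fresh and 0.25 in stimulated cells.

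For most genes with the smallest interaction p-values, the genotypes differed more before stimulation than after it. Fresh libraries of unlike genotype correlated about as well as fresh replicates did (0.682 to 0.708 against 0.709 and 0.684). Of the 12 of smallest p in each direction, 23 of 24 had the larger genotype difference in fresh cells, against 78.5% of all genes. These 24 genes were picked by the interaction itself. Positive interactions among them were mostly genes found in fresh WT and absent or nearly absent from fresh KO. Ndufa7, a subunit of respiratory complex I on chromosome 17 from 33824572 to 33838316, had 104 and 81.9 CPM in fresh WT, 13.9 and 8.76 in fresh KO, 125 and 166 in stimulated WT against 163 and 158 in stimulated KO. Only the fresh KO libraries were low. It rose in KO (3.82, adjusted p = 0.00763 by edgeR) and its response in WT was 0.65 (0.412), which gave an interaction of 3.17 ± 0.51 (95% interval 1.99 to 4.34, adjusted p = 0.406).

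E2f1, a transcription factor that drives entry into DNA replication, had 47.2 and 17.9 CPM in fresh WT and no count in fresh KO. In stimulated cells it had 37.8 and 43.7 CPM in WT and 42.5 and 56.7 in KO. Its response in WT was 0.32, and in KO its level was at least 60.2-fold higher after stimulation, measured against 3 counts over the fresh KO group. Suv39h1, a histone H3 lysine 9 methyltransferase, had 20.6 and 17.9 CPM in fresh WT, none in fresh KO, and 43.7 to 62.0 in the 4 stimulated libraries. Kcnk5, a potassium channel, was at 38.6 and 110.0 CPM in fresh WT, at 0 in fresh KO, at 14.9 and 7.58 in stimulated WT and at 22.7 and 21.8 in stimulated KO. The sign of its response differed, at -2.72 in WT (adjusted p = 0.213 by edgeR) and a level at least 27.5-fold higher in KO.

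Ltbp3, which binds latent TGF-beta, Cep83, a centriole protein, Hcst, a signalling adaptor of lymphoid receptors, and Dennd1a, an exchange factor for Rab proteins, had no count in fresh KO either, with fresh WT levels at least 71.8-fold, 67.9-fold, 40.0-fold and 55.1-fold higher. Wwc2 had 1 count over fresh KO, and its fresh WT level was 183 times that of fresh KO (95% counting interval 32.3 to 7260). For Slc43a3, with 2 counts over fresh KO, the ratio was 99.5 (27.1 to 828). Only counting error enters such bounds and intervals, and RNA that failed to reach a library does not. Nap1l4, a histone chaperone, was well counted, with 382 and 394 CPM in fresh WT, 170.1 and 161 in fresh KO, 229 and 232 in stimulated WT against 269 and 251 in stimulated KO. Its response was -0.75 in WT and 0.65 in KO, and its interaction was 1.40 ± 0.26.

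Over all genes tested, 73 had no count in fresh KO and more than 10 CPM in both fresh WT libraries, and 29 had the reverse. In stimulated cells the same 2 counts were 0 and 0. Replicates of the fresh groups also disagreed by such amounts. Gadd45a, a stress-induced inhibitor of growth, had 0.535 CPM in fresh KO replicate 3 and 70.6 in fresh KO replicate 4. Both fresh KO libraries had fewer genes detected (9116 and 9492) than both fresh WT libraries (9861 and 9993), although their total counts were higher. The part of this in the counts above, and in the excess of positive interactions at an unadjusted p under 0.05, was not tested.

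The genes of negative interaction described next were higher in both fresh KO than in both fresh WT libraries, as were 14.5% of all genes. They were picked by the interaction itself, which favours such an order. Blm, a helicase that resolves recombination intermediates, had 0.665 and 0.598 CPM in fresh WT, 52.96 and 33.95 in fresh KO and 22.4 to 26.8 in the 4 stimulated libraries. With 2 counts over fresh WT, its fresh ratio of KO to WT was 69.2 (95% counting interval 18.8 to 576). Shprh, a ubiquitin ligase that acts on the replication clamp, had 11.3 and 7.77 CPM in fresh WT, 149 and 87.6 in fresh KO and 42.9 to 56.5 in stimulated cells. Both genes had a high fresh KO level and stimulated levels that overlapped or nearly overlapped between genotypes.

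Dusp6, a phosphatase that shuts off ERK and that cytokines induce, had 146 and 129 CPM in fresh WT, 358 and 311 in fresh KO, 209 and 252 in stimulated WT against 188 and 212 in stimulated KO. Its interaction was -1.49 ± 0.31, from a response of 0.74 in WT and -0.75 in KO. Fam49b, a regulator of the actin cytoskeleton, rose in WT (2.45, adjusted p = 0.00511 by edgeR) from 99.1 and 96.3 to 533 and 535 CPM. In KO it went from 235 and 193 to 491 and 424 CPM (1.10, adjusted p = 0.0625). Both genotypes were higher after stimulation, and the interaction was -1.36 ± 0.28. Pex13, of peroxisomal import (-3.32 ± 0.69), Rp9 (-1.61 ± 0.34), Efl1, of ribosome maturation (-7.81 ± 1.38) and B3galt6 (-5.57 ± 1.21) were likewise higher in both fresh KO than in both fresh WT libraries. Stx18 and Bloc1s5 had no count in fresh WT, and their fresh KO levels were at least 45.3-fold and 42.7-fold higher.

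**Figure D1:**
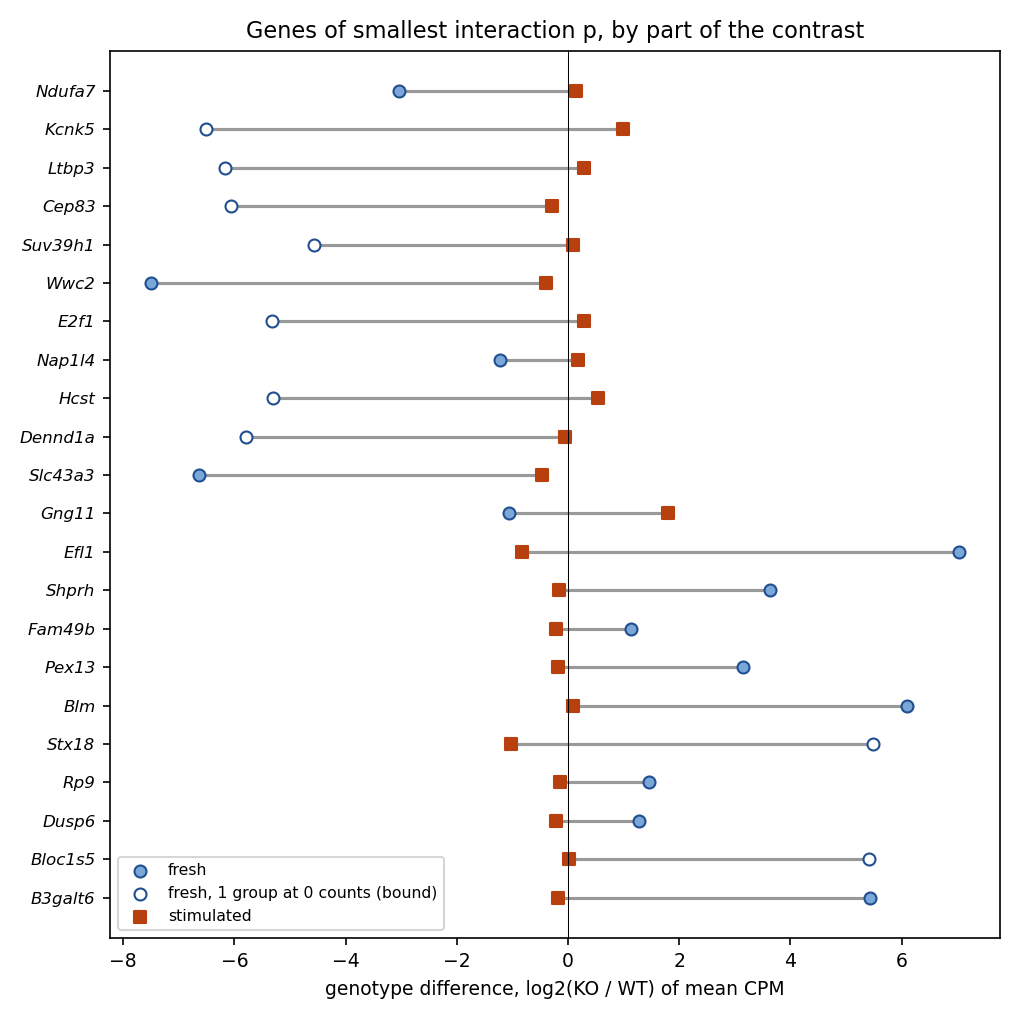
Genotype difference, as log2 of the KO mean CPM over the WT mean CPM, in fresh cells (circles) and stimulated cells (squares) for 22 of the 24 genes of smallest interaction p, each mean over 2 libraries; open circles are bounds set with 3 counts over a group at 0. The circle lies farther from 0 than the square for 21 genes, and Gng11 is the exception, at -1.06 in fresh and 1.80 in stimulated cells. Stimulated differences were also seen for Stx18 (-1.02), Kcnk5 (0.99) and Efl1 (-0.83).

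Taken by genotype, the cytokine response called 101 genes in WT and 70 in KO. In WT 40 genes rose (0.371%) and 61 fell (0.566%), a split that RLE scaling moved to 26 and 65 and voom to 33 and 185. With the replicate block it was 114 and 103, and without fresh KO replicate 3 it was 254 and 167. In KO 34 rose (0.315%) and 36 fell (0.334%). That split was 4 and 82 with voom, 569 and 340 with DESeq2 and 555 and 159 without fresh KO replicate 4, so the balance of rises and falls rested on the method and on single libraries. The 2 lists shared 40 genes, 39.6% of the WT calls and 57.1% of the KO calls, all with the same sign. The 2 responses share no library, and 99 of the 101 WT calls had the same sign in KO, as did 67 of the 70 KO calls in WT. Across genes (no independent replicates), the 2 responses correlated at 0.152 below 20 CPM, 0.342 from 20 to 100, 0.719 from 100 to 500 and 0.853 at 500 CPM and above.

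Over responding genes, the larger response was about as often in KO as in WT. On the average of the genotypes, 245 genes rose (2.27%) and 199 fell (1.84%). Of these 444, 209 (47.1%) had the larger response in KO, which was 122 of the 245 that rose (49.8%) and 87 of the 199 that fell (43.7%). The median interaction in the direction of the response was -0.08. Without the genes that had at most 3 counts in a group, 164 of 362 (45.3%) had the larger response in KO. Single fresh libraries moved this share. It was 35.5% without fresh WT replicate 1, 36.3% without fresh WT replicate 2, 63.6% without fresh KO replicate 3 and 67.1% without fresh KO replicate 4.

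Of the 6 genes with the largest average rise, 4 had no count in fresh cells of either genotype. Prg2, the eosinophil major basic protein, had no fresh count and reached 681 and 449 CPM in stimulated WT against 218 and 202 in stimulated KO. Dntt, the terminal transferase of early lymphoid cells, had no fresh count and reached 388 and 802 CPM in stimulated WT against 70.9 and 29.6 in stimulated KO. Both stimulated WT libraries lay above both KO libraries for each gene, and with both fresh groups at 0 the interaction cannot be estimated. Their levels rose at least 598-fold and 630-fold in WT and at least 260-fold and 64.3-fold in KO. Atp8b4, a lipid flippase, and Cst7, a protease inhibitor of cytotoxic and myeloid cells, were also at 0 in fresh cells and reached 66.2 to 146 and 49.98 to 101 CPM. Ccl9, a chemokine, had 0 and 1.196 CPM in fresh WT, none in fresh KO and 28.9 to 63.0 in stimulated cells. Fcgr3, an Fc receptor, had 8.65 and 0.598 CPM in fresh WT, none in fresh KO and 55.6 to 113 in stimulated cells.

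The 6 genes with the largest average fall held the neutrophil products Ngp, Chil3, Camp and S100a9, beside LOC105247188 and Rgag4. Camp, an antimicrobial peptide, had 441 to 491 CPM in the 4 fresh libraries, 35.7 and 68.5 in stimulated WT against 15.1 and 41.5 in stimulated KO, and its interaction was -0.87 ± 0.64 (adjusted p = 0.725 by edgeR). Ngp, a granule protein, fell by 3.73 in WT and 4.25 in KO. S100a9, a calcium-binding protein of neutrophils, fell by 3.03 in WT and 3.46 in KO. Chil3 (-0.67 ± 1.38), Rgag4 (1.21 ± 0.66) and LOC105247188 (0.87 ± 1.07) had interactions with intervals that included 0. Genes of immature granules went the other way. Elane rose by 4.30 in WT and 4.53 in KO, Mpo by 4.30 and 3.88, and Prtn3 by 3.43 and 2.92, all with adjusted p under 0.05 in edgeR. Ctsg rose in both genotypes too, by 4.49 in WT and 6.58 in KO. It had 40.6 and 11.4 CPM in fresh WT, 3.75 and 4.38 in fresh KO, 587 and 573 in stimulated WT against 508 and 277 in stimulated KO. Its interaction was 2.09 ± 0.81. The genotypes did not overlap in fresh or in stimulated cells, and KO was the lower in both.

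Long-term HSC identity genes had the highest share of positive interactions of the 32 lists. All 32 listed genes were tested, and 29 had a positive interaction, against 52.6% of all genes. Their median interaction was 1.15, against 0.08 over all genes, and 1.08 with groups of 0 counts set to their bound. The median response was -1.48 in WT and -0.47 in KO. None of the 32 passed the interaction test. An unadjusted p under 0.05 was found for 6 (18.8% of the list, against 9.56% of all genes), all positive (5.96% of all genes). These genes are not independent of one another, and that the list is higher in stimulated KO than in stimulated WT cells was known when it was chosen, so the count is a description.

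Identity levels differed less between genotypes in fresh than in stimulated cells. The median CPM of the 32 members was 81.5 and 91.2 in fresh WT, 68.7 and 74.5 in fresh KO, 18.5 and 23.8 in stimulated WT against 45.4 and 60.2 in stimulated KO. By this list median, both fresh KO libraries lay below both fresh WT libraries. The median genotype difference was -0.03 in fresh and 1.21 in stimulated cells. Taken without sign, its median was 0.47 in fresh and 1.21 in stimulated cells, so single members also differed before stimulation. Both stimulated KO libraries lay above both stimulated WT libraries for 26 of the 32 members, against 21.2% of all genes, and for no member were both below (20.3% of all genes). In fresh cells both KO libraries lay above both WT libraries for 3 members (14.5% of all genes) and below for 5 (17.6%). Both stimulated WT libraries lay below both fresh WT libraries for 23 members (20.6% of all genes), and in KO for 10 (17.7%).

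By the test of each gene, 3 members fell in WT (0.566% of all genes) and 0 in KO (0.334%), and 7 fell on the average of the genotypes (1.84%). Those in WT were Sult1a1, a sulfotransferase, by 3.68, Trpc6, a cation channel that conducts calcium, by 2.97, and Hlf, a transcription factor that keeps HSCs at rest, by 1.27. Their responses in KO were -0.99, -1.71 and -0.81, with adjusted p = 0.413, 0.151 and 0.113 by edgeR. That a fall passed in WT and not in KO does not show that it differed, and the interactions of Trpc6 (1.27 ± 0.69) and Hlf (0.46 ± 0.28) had intervals that included 0.

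**Figure D2:**
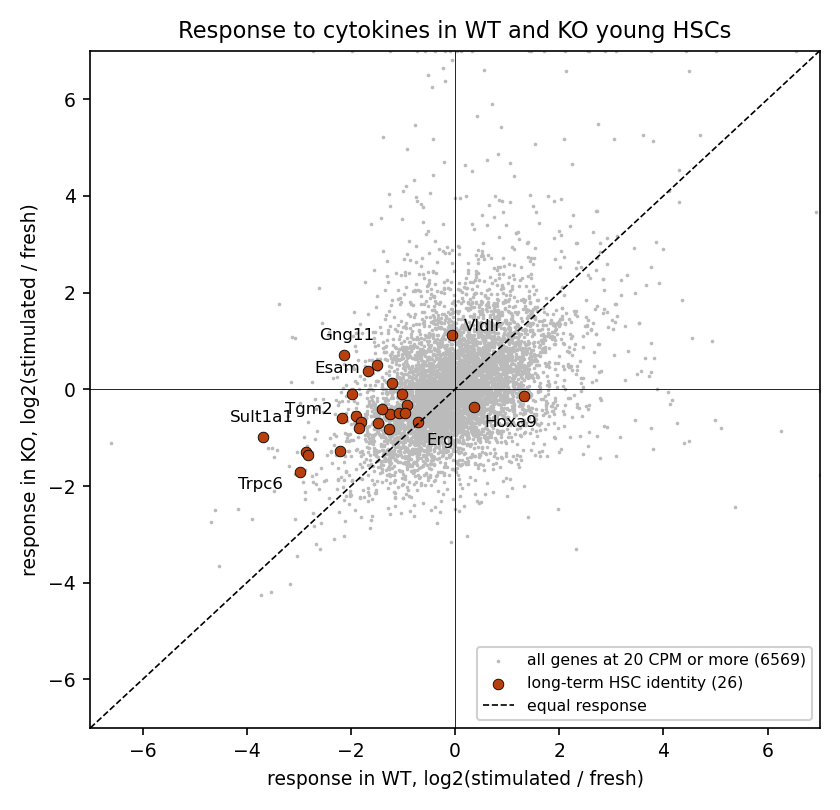
Response in WT (x axis) and in KO (y axis), as log2 of stimulated over fresh, for the 6569 genes whose mean level reached 20 CPM (grey; 29 beyond 7 on either axis are drawn at its edge) and the 26 identity members at that level (red). Of the 26 members, 24 lie above the dashed line of equal response, most of them left of 0, where the fall in WT was larger.

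The member with the smallest interaction p was Gng11. This G protein gamma subunit, on chromosome 6 from 4003987 to 4008445, had 206 and 136 CPM in fresh WT, 59.4 and 105 in fresh KO, 42.6 and 34.8 in stimulated WT against 117 and 153 in stimulated KO. In WT its stimulated level was far under the fresh one, and in KO both stimulated libraries were above both fresh ones. The response was -2.14 ± 0.41 in WT and 0.72 ± 0.39 in KO, and the interaction was 2.86 ± 0.57 (95% interval 1.56 to 4.16, adjusted p = 0.406 by edgeR). It stayed between 2.50 and 3.31 with any library left out.

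Esam, an adhesion molecule of HSCs, megakaryocytes and endothelium, on chromosome 9 from 37528089 to 37538319, had 75.8 and 109 CPM in fresh WT, 68.5 and 65.2 in fresh KO, 32.6 and 25.5 in stimulated WT against 81.4 and 92.9 in stimulated KO. Only stimulated WT was low. Its interaction was 2.05 ± 0.56 (95% interval 0.76 to 3.35). Tgm2, a transglutaminase, had 75.8 and 71.8 CPM in fresh WT, 105 and 101 in fresh KO, 19.7 and 12.7 in stimulated WT against 54.4 and 82.0 in stimulated KO. The genotypes did not overlap in either condition, and the gap was wider after stimulation, with an interaction of 1.59 ± 0.61 (0.18 to 2.99). Angpt1, a ligand of the receptor Tek that HSCs make themselves, had 904 and 1088 CPM in fresh WT, 842 and 1316 in fresh KO, 406 and 429 in stimulated WT against 662 and 849 in stimulated KO. Its interaction of 0.74 ± 0.34 had an interval of -0.03 to 1.52. Tek itself was at 89.8 and 28.7 CPM in fresh WT, 84.0 and 38.3 in fresh KO, 13.9 and 2.75 in stimulated WT against 20.4 and 27.5 in stimulated KO.

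Sult1a1, on chromosome 7 from 126672865 to 126690443, was the member whose stimulated genotype difference was largest among those above 20 CPM. It had 87.8 and 90.9 CPM in fresh WT, 53.5 and 114 in fresh KO, 5.20 and 8.61 in stimulated WT against 29.1 and 55.6 in stimulated KO. Fresh groups overlapped and stimulated groups did not. The interaction was 2.70 ± 0.83 (0.78 to 4.61), with adjusted p = 0.413 by edgeR. Fgd5, an exchange factor used to mark HSCs, went from 83.1 and 22.7 CPM in fresh WT to 3.46 and 1.03, and from 9.63 and 13.1 in fresh KO to 10.5 and 9.50. Its interaction of 4.34 ± 1.51 rests on few reads and on fresh WT replicates that differ from each other. Procr, the protein C receptor that marks HSCs, had 272 and 199 CPM in fresh WT, 236 and 92.5 in fresh KO, 72.7 and 54.1 in stimulated WT against 117 and 107 in stimulated KO, an interaction of 1.34 ± 0.61.

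Among transcription factors of the list, Mecom had the smallest interaction p. Mecom, a zinc finger factor needed for HSC maintenance, had 164 and 108 CPM in fresh WT, 69.0 and 83.8 in fresh KO, 56.5 and 40.3 in stimulated WT against 82.6 and 134 in stimulated KO. The order of the genotypes was reversed between fresh and stimulated cells, and the interaction was 2.00 ± 0.57 (0.67 to 3.32). Gata2 had 223 and 294 CPM in fresh WT, 247 and 245 in fresh KO, 141 and 116 in stimulated WT against 172 and 286 in stimulated KO, an interaction of 0.91 ± 0.42. Meis1 (0.78 ± 0.43), Mllt3 (1.05 ± 0.73) and Prdm16 (1.56 ± 0.85) were also positive, and each had higher stimulated levels in both KO than in both WT libraries.

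Hlf, the most abundant transcription factor of the list, had 1005 and 959 CPM in fresh WT, 825 and 1029 in fresh KO, 347 and 467 in stimulated WT against 494 and 563 in stimulated KO, so both genotypes were lower after stimulation. Erg had an interaction close to 0. It had 172 and 292 CPM in fresh WT, 250.4 and 203 in fresh KO, 132 and 152 in stimulated WT against 135 and 148 in stimulated KO, and its interaction was 0.03 ± 0.42. Hoxa9 (-0.73 ± 0.99), Robo4 and Hdac9 were the 3 members with a negative interaction. Hoxa9 had 19.95 CPM in fresh WT replicate 1 against 122 to 161 in the other 3 fresh libraries. The surface proteins Ly6a, which encodes Sca-1 (0.60 ± 0.58), and Ifitm1 (1.12 ± 0.61) were positive with wide errors.

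**Figure D3:**
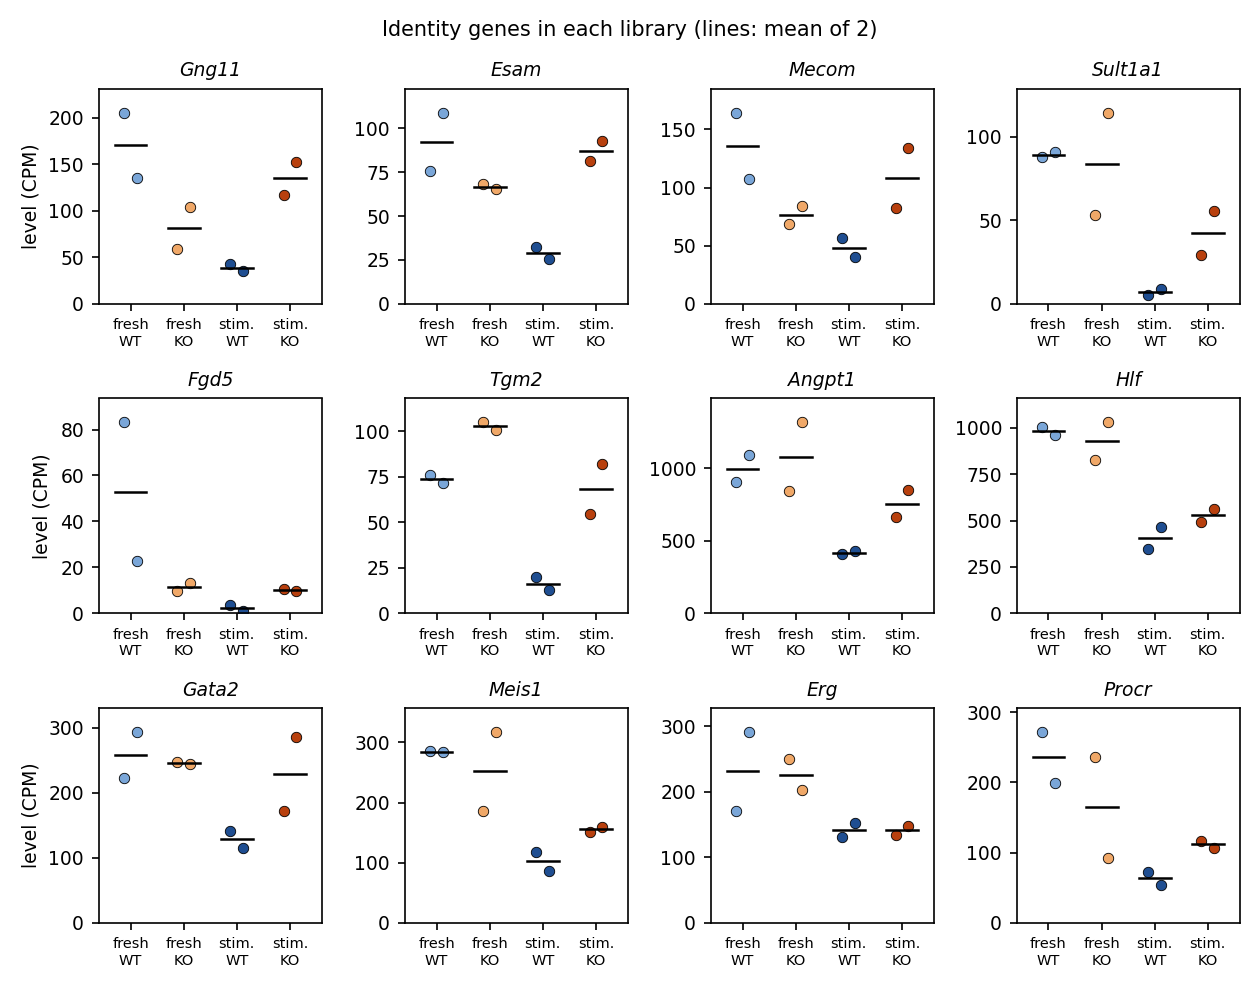
CPM of 12 identity genes in each library (points, on linear axes from 0) with the mean of each group of 2 (lines): the 6 of smallest interaction p, then 6 others of high level. Stimulated WT is the lowest group in 11 panels, and in Erg the stimulated groups coincide.

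The identity median stayed positive with any library left out. Its median interaction was 1.16 without fresh WT replicate 1, the library with Y-linked counts. It ranged from 0.88 without fresh WT replicate 2 to 1.51 without fresh KO replicate 3, with 24 to 29 of the 32 positive. The median over all genes moved from -0.12 to 0.31 over the same 8 sets. Neutrophil markers, the largest signal of another cell type, did not separate the stimulated genotypes, at 918 and 1513 CPM in WT and 980 and 795 in KO. Megakaryocyte markers did, at 266 and 152 CPM in WT and 475 and 527 in KO, against 386 and 281 in fresh WT and 370 and 618 in fresh KO. The neutrophil sum is mostly S100a8 and S100a9, and the megakaryocyte sum mostly Pf4 (210 and 113 CPM in stimulated WT, 396 and 450 in stimulated KO). Single markers can differ from their sum. Itga2b overlapped between the stimulated genotypes, and Ngp did not, at 18.0 and 31.3 CPM in WT and 16.0 and 14.1 in KO. B cell markers were at 52.6 and 209 CPM in stimulated WT against 23.3 and 33.4 in stimulated KO. Their part in the identity result was not tested.

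Promoters of identity members were read for 2 short motifs bound by factors of HSCs. The table of RefSeq promoters (GRCm38.p6) held 23 of the 32 members. In the 250 bases before the first start that the table gives for a gene, AGATAA, a core bound by GATA factors, or its reverse complement TTATCT was in 0 of 23 promoters and in 10.3% of 27025 promoters. AGGAAG, a core bound by ETS factors such as Erg, or CTTCCT was in 6 of 23 (26.1%), against 29.2% of all. The cores can share bases where they adjoin. The share of members was near that of all promoters for ETS cores, and no match says only that these letters are not in this window. The 3 promoters below are those of the members with a single start in that table and the smallest interaction p, 5′ to 3′ on the gene's strand, with ETS cores in capitals. They lie at chr7:126676419-126676668 (Sult1a1, minus strand), chr6:91978715-91978964 (Fgd5, plus strand) and chr2:155750967-155751216 (Procr, plus strand), and hold 2, 1 and 0 ETS cores. In each of the 3, RefSeq's span of the gene begins upstream of the start used, so other transcripts may start elsewhere.
Sult1a1: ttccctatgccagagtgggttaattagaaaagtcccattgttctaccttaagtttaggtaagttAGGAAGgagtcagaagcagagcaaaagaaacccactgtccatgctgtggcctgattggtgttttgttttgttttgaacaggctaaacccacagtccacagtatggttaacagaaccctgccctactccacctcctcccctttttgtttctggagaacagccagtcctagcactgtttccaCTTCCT
Fgd5: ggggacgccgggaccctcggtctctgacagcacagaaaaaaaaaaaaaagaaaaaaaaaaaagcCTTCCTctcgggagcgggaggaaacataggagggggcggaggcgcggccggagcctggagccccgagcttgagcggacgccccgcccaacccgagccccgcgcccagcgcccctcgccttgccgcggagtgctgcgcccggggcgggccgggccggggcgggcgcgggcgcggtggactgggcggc
Procr: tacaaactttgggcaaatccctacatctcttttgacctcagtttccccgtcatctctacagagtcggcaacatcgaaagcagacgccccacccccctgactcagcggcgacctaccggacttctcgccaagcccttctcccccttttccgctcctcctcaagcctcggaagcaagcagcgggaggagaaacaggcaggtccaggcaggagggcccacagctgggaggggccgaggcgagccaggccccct

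The lists of HSC ageing, megakaryocyte and adhesion genes, which share 3, 1 and 5 tested members with the identity list, were also mostly positive. HSC ageing genes, which are known to be higher in old than in young HSCs, had a positive interaction in 23 of 33 tested members. Their median was 0.85, and 2 members had an unadjusted p under 0.05 (9.56% of all genes). The members shared with the identity list were Sult1a1, Mllt3 and Slamf1. Aldh1a1, a retinaldehyde dehydrogenase, had 96.4 and 350 CPM in fresh WT, 278 and 314 in fresh KO, 35.7 and 33.4 in stimulated WT against 124 and 168 in stimulated KO, an interaction of 1.67 ± 0.73. It fell on average (-1.86, adjusted p = 0.0344 by edgeR). The median of the ageing list ranged from 0.24 to 1.35 with a library left out.

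Megakaryocyte and platelet genes were positive in 14 of 18, with a median of 1.15. That median ranged from 0.44 to 1.42 with a library left out, with 11 to 16 positive. An unadjusted p under 0.05 was found for 1 member (5.56%, against 9.56% of all genes). Nfe2, a transcription factor of platelet formation, had 71.2 and 65.2 CPM in fresh WT, 19.3 and 38.9 in fresh KO, 63.4 and 44.1 in stimulated WT against 66.0 and 74.3 in stimulated KO (1.61 ± 0.72). Vwf, the von Willebrand factor, was at 10.2 and 26.8 CPM in stimulated KO and at or under 5.98 CPM in the other 6 libraries, and its interaction turned to -0.73 without fresh WT replicate 2. Matrix, junction and adhesion genes of HSCs were positive in 16 of 23 (median 0.76, and 0.20 to 1.11 with a library left out). Cd34, an adhesion molecule that rises as HSCs become progenitors, ran against them. It had 360 and 415 CPM in fresh WT, 458 and 453 in fresh KO, 876 and 829 in stimulated WT against 594 and 394 in stimulated KO. Its response was 1.14 in WT and 0.12 in KO, an interaction of -1.02 ± 0.31.

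**Figure D4:**
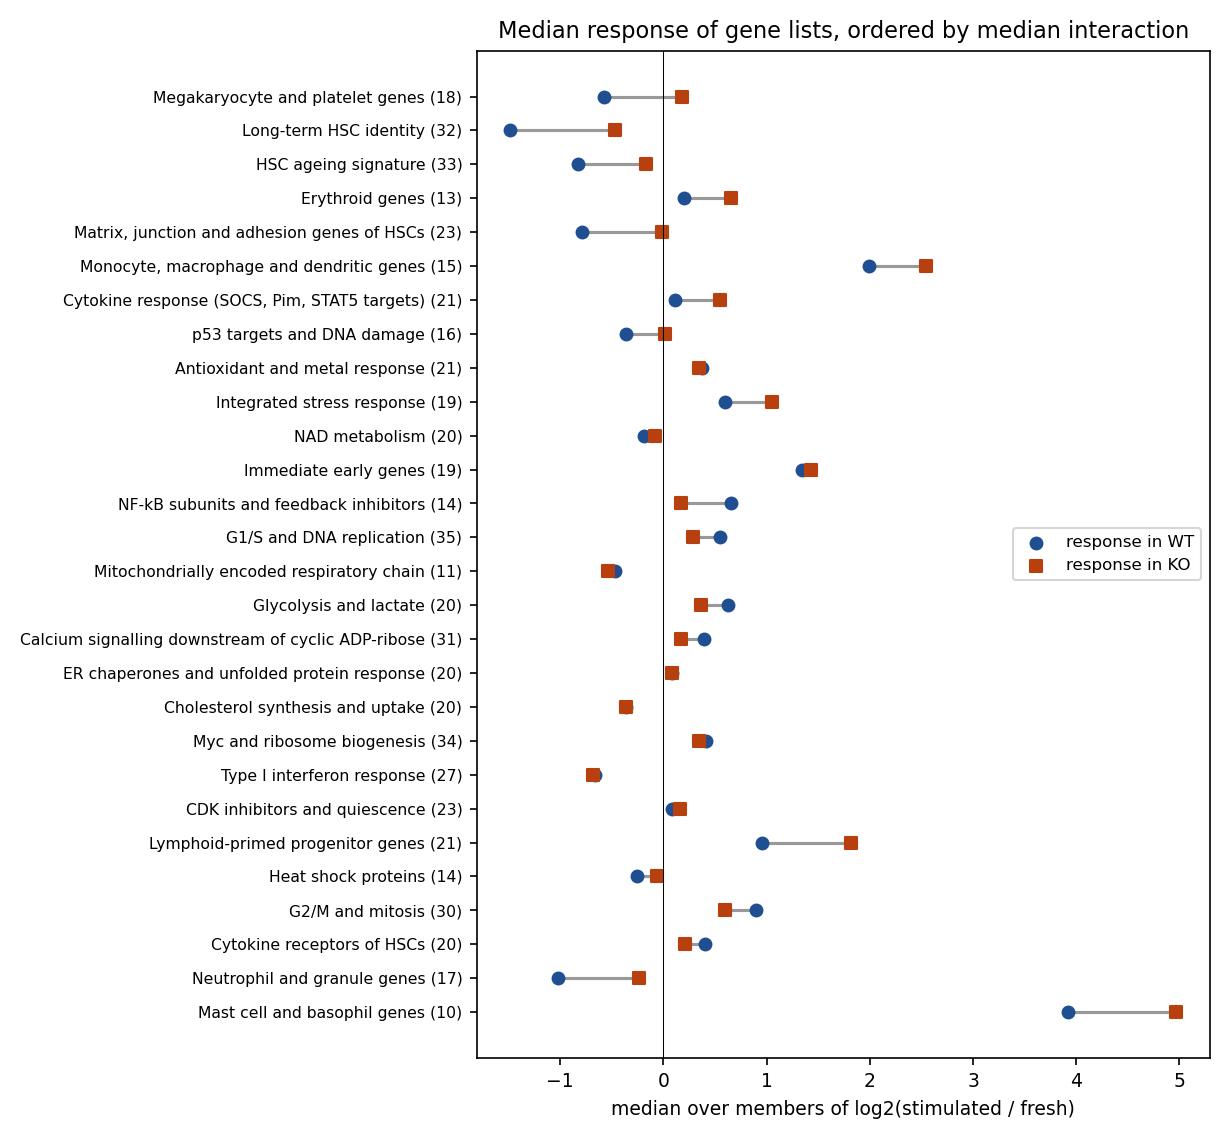
Median response of each gene list with at least 10 tested members, in WT (circles) and KO (squares), as log2 of stimulated over fresh, with the number of members in brackets and lists ordered from the highest median interaction at the top. Identity genes stand at -1.48 in WT and -0.47 in KO, and most lists of stress, metabolism and growth lie closer together. The gap between the 2 medians differs in sign from the median interaction for 11 of the 28 lists, most widely for mast cell, lymphoid-primed and neutrophil genes.

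Cytokine receptors were positive in 8 of 20 (median -0.42), with 2 positive and 4 negative at an unadjusted p under 0.05 (5.96% and 3.6% of all genes). In this list 5 of 20 members had at most 3 counts over a group. Members with no count in any fresh library were all counted as negative, though their interaction cannot be estimated, so the list shows no clear direction. Flt3, the receptor of lymphoid-primed progenitors, rose in WT (3.53, adjusted p = 0.0492 by edgeR), from 7.98 and 25.7 to 143 and 250.3 CPM. In KO it stood at 21.4 and 23.0 CPM fresh and 65.1 and 49.3 stimulated (1.36, adjusted p = 0.251). Fresh groups overlapped and stimulated WT lay above stimulated KO, and the interaction was -2.17 ± 0.81. Kit, the receptor of stem cell factor, was opposite, with 332 and 352 CPM in fresh WT, 337 and 210.3 in fresh KO, 198 and 221 in stimulated WT against 274 and 350.2 in stimulated KO (0.90 ± 0.37). Il1r1, the interleukin 1 receptor, had 67.9 CPM in fresh KO replicate 3 and 1.10 in fresh KO replicate 4, so its -5.51 ± 2.21 rests on one library.

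Cytokine response genes, a list of Socs and Pim genes, STAT5 targets and related genes, were positive in 15 of 21 (median 0.47), with 4 positive and 1 negative at an unadjusted p under 0.05 (5.96% and 3.6% of all genes). Socs2, a target and inhibitor of STAT5, had 55.2 and 46.6 CPM in fresh WT, 35.3 and 49.3 in fresh KO, 15.6 and 29.6 in stimulated WT against 53.5 and 83.1 in stimulated KO (1.86 ± 0.80). Osm, a cytokine that STAT5 induces, had 18.0 and 9.57 CPM in fresh WT, no count in fresh KO and 10.04 to 19.7 CPM in stimulated cells. Immediate early genes were positive in 10 of 19 (median 0.14), with 0 at an unadjusted p under 0.05 (9.56% of all genes). Dusp2 (1.73 ± 0.85) and Btg2 (-3.18 ± 1.72) had the smallest p among them.

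Cell cycle genes that passed the test of the average response rose, 4 of 35 for G1/S and DNA replication and 6 of 30 for G2/M, against 2.27% of all genes. The interaction was positive in 18 of 35 G1/S genes (median 0.04) and negative in 20 of 30 G2/M genes (median -0.38). Cenpa, the centromeric histone, rose in KO (5.08, adjusted p = 0.0413 by edgeR) from 2.14 and 3.83 to 90.4 and 115 CPM, while WT went from 53.2 and 13.2 to 84.9 and 108. Aurkb, a mitotic kinase, had 43.2 and 58.6 CPM in fresh WT, 183 and 82.1 in fresh KO and 78.1 to 103 in stimulated cells (-1.71 ± 0.61). CDK inhibitors and quiescence genes were positive in 10 of 23 (median -0.11). Foxo1, a factor of quiescence, had 37.9 and 17.9 CPM in fresh WT, 2.68 and 1.64 in fresh KO and 15.6 to 30.0 in stimulated cells (3.67 ± 1.36). In each of these genes the genotype difference was larger in fresh than in stimulated cells.

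Lists tied to the enzyme itself had medians near that of all genes. NAD metabolism genes were positive in 11 of 20 (median 0.16), with 0 at an unadjusted p under 0.05 (9.56% of all genes). Parp14, a mono-ADP-ribosyltransferase, had 2.46 ± 1.32 and Nadsyn1, an NAD synthetase, -3.77 ± 2.42. Calcium signalling genes downstream of cyclic ADP-ribose were positive in 13 of 31 (median -0.08). At an unadjusted p under 0.05 there were 2 positive and 1 negative (5.96% and 3.6% of all genes). Stim1, the sensor of the calcium store, had 36.6 and 38.3 CPM in fresh WT, 4.28 and 6.57 in fresh KO and 22.0 to 36.4 in stimulated cells (2.76 ± 1.06). Its channel Orai1 had 2.66 and 32.9 CPM in fresh WT, none in fresh KO and 26.7 to 35.1 in stimulated cells. Ppp3r1, the regulatory subunit of calcineurin, fell by 1.18 in WT and 1.07 in KO.

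Type I interferon genes were positive in 11 of 27 (median -0.11), with 0 positive and 4 negative at an unadjusted p under 0.05 (3.6% of all genes were negative at that level). Isg15, a ubiquitin-like protein induced by interferon, had 45.9 and 40.7 CPM in fresh WT, 124 and 106 in fresh KO and 27.8 to 52.99 in stimulated cells (-1.76 ± 0.64). Integrated stress response genes were positive in 10 of 19 (median 0.16). The amino acid transporters Slc7a1 (3.66 ± 0.89) and Slc3a2 (2.93 ± 0.79) were low in fresh KO, at 11.2 and 3.83 and at 6.95 and 12.1 CPM, against 104 and 46.0 and 44.6 and 47.2 in fresh WT. After stimulation Slc7a1 had 62.7 and 65.1 CPM in WT against 75.3 and 87.3 in KO. Slc3a2 had 44.3 and 40.3 CPM in stimulated WT against 63.7 and 70.4 in stimulated KO, so the KO libraries lay above for both genes.

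Chaperones were positive in 10 of 20 for the endoplasmic reticulum (median -0.09) and in 6 of 14 for heat shock proteins (-0.22). Hspe1, the mitochondrial co-chaperonin, had 484 and 425 CPM in fresh WT, 764 and 813 in fresh KO and 780.3 to 896 in stimulated cells. It rose in WT (0.90, adjusted p = 0.0492 by edgeR), its response in KO was 0.09, and the interaction was -0.82 ± 0.22. Pdia3, a disulfide isomerase, rose in WT (1.28, 0.0491) and its interaction was -0.89 ± 0.30, while Pdia4 had no count in fresh WT. Hsp90ab1 had -0.42 ± 0.20.

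Lists of growth and metabolism stood close to 0. Myc and ribosome biogenesis genes had a median of -0.11 (15 of 34 positive), with Nop14 at -1.35 ± 0.40 and Npm1 at -0.68 ± 0.22. Glycolysis genes had -0.05 (9 of 20), with Slc2a1, the glucose transporter, at 2.32 ± 1.03 and Pdk1 at -0.92 ± 0.47. The mitochondrially encoded chain had 0.03 (6 of 11), and CYTB fell by 1.05 in WT and 0.72 in KO with an interaction of 0.33 ± 0.17. ND6 had 1.24 ± 0.55. Cholesterol genes had -0.10 (9 of 20), with Insig1, which restrains sterol synthesis, at 2.78 ± 1.59. Antioxidant genes had 0.22 (12 of 21), with Prdx1, a peroxiredoxin, at 1.36 ± 0.35 and Nqo1 at 0 in 3 of the 4 fresh libraries.

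Several lineage genes were at or near 0 in fresh cells. Lymphoid-primed genes were positive in 10 of 21 (median -0.17). Gimap6, a GTPase of lymphocytes, had 95.1 and 54.4 CPM in fresh WT, 23.5 and 27.9 in fresh KO and 70.7 to 99.96 in stimulated cells (1.85 ± 0.61). Mn1 had no count in fresh KO and 5.23 to 8.26 CPM in stimulated cells. B cell genes were tested for 5 of 12 and T cell genes for 3 of 12. Ebf1 had 22.5 CPM in fresh KO replicate 3 and none in the other 3 fresh libraries, and Vpreb1 had 30.8 and 130 CPM in stimulated WT against 4.94 and 14.4 in stimulated KO. Gata3 had 0.46 ± 0.91.

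Neutrophil and granule genes were positive in 7 of 17 (median -0.42), with Cebpe at 0 in 3 of the 4 fresh libraries. Monocyte, macrophage and dendritic genes were positive in 8 of 15 (median 0.51), and Adgre1, a macrophage surface protein, had no count in fresh KO and at most 5.85 CPM in stimulated cells. Mast cell and basophil genes were positive in 3 of 10 (median -0.75), with Csf2rb at 4.91 ± 1.97. Of these 10 genes, 6 had at most 3 counts over a group, so the sign count is weak. Erythroid genes were positive in 8 of 13 (median 0.78). Car2, a carbonic anhydrase, fell in WT (-1.20, adjusted p = 0.0491 by edgeR) and had -0.75 in KO (0.143), an interaction of 0.46 ± 0.29, and Gata1 had no count in fresh KO.

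Of the remaining lists, p53 targets were positive in 9 of 16 (median 0.36), with Bbc3 at 2.13 ± 0.92 and Zmat3 with no count in fresh KO. NF-kB genes were positive in 7 of 14 (median 0.08), with Birc3 at 2.78 ± 2.18 and Tnfaip3 at 0 in 3 of the 4 fresh libraries. Stroma and endothelium genes were tested for 7 of 15, of which 6 were positive, with Col1a2 at 11.3 and 29.9 CPM in fresh WT and at most 1.45 CPM in the other 6 libraries, and Pecam1 at 0 in 3 of the 4 fresh libraries.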

How the data were processed

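Per the labels' protocols, RNA was purified on RNeasy Plus Micro columns and made into 3′ libraries with Lexogen's QuantSeq FWD kit. The values were raw counts per gene symbol that the authors deposited. The submitters' processing notes name HISAT2 2.2.1, HTSeq 0.9.1, DESeq2 1.34.0 and mm10. The annotation and strand setting behind the counts are not given in the sources used here. The file of a library held 35976 symbols, and 32501 (90.3%) matched a RefSeq table of GRCm38.p6 for positions.

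Counts of the 8 young libraries were fitted in R 4.3.3 with edgeR 4.0.16 (TMM, filterByExpr at 10 counts and 15 in total, 4 residual and 4.13 prior degrees of freedom), which kept 10786 genes and left at most 0.415% of a library's counts outside. Levels are CPM on TMM sizes. A group at 0 was bounded with 3 counts over the group, and ratios with 1 to 3 counts have exact conditional 95% intervals. Library correlations used log2 CPM with a prior count of 2. The fit was tested on simulated data.

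The 32 gene lists (718 members, 715 in the files, 614 tested) and the comparison were chosen with earlier results of these data known. Genes were named by rule: Cd38, the 12 smallest interaction p-values in each direction at a mean of at least 5 CPM without predicted models, the 6 largest average rises and falls at 20 CPM, and 2 members of each list. The 12 identity members of highest level, the members that passed an average or single response test, and Tek, Robo4, Hdac9 and Socs2 were added after their values were seen, as were Kit, Trpc6, Prdm16, Tgm2, Mecom and Fgd5.

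Alternatives were RLE scaling, no filter, DESeq2 1.42.0, limma 3.58.1 voom with a weight per group, all 12 libraries, a replicate block and each library left out. The count of positive identity genes under these, and the share of responders without low groups, were added after the data had been seen. Some genes picked by these rules are left out of the text and plots and not reported here.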

Additional observations from a re-analysis of the deposited data

Results flagged for a closer look

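In 30 of the 103 named genes every stimulated library lay above the fresh libraries in one genotype and below them in the other. Many named genes were picked by a small interaction p, which favours such an order. Its share over all genes was not counted, so the 30 are a description. The difference is the interaction, and none of these genes passed edgeR's test of it. Where a group had no count, the value uses 3 counts over the group.

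Among genes of HSC identity and of megakaryocytes, Gng11 (2.86), Esam (2.05) and Nfe2 (1.61) were flagged. For each, both stimulated WT libraries were below both fresh WT libraries and the KO order was the opposite. Those of positive sign also held Kcnk5 (7.54), Col1a2 (6.62), Ltbp3 (6.46), Zmat3 (5.91), Hcst (5.85), Dennd1a (5.73), Adgre1 (4.53) and Mn1 (3.71), each with at most 1 count over fresh KO. Slc3a2 (2.93), Birc3 (2.78), Stim1 (2.76), Parp14 (2.46), Slc2a1 (2.32), Bbc3 (2.13), Nap1l4 (1.40) and Prdx1 (1.36) were lower in fresh KO than in fresh WT. Over all genes, both fresh KO libraries lay below both fresh WT libraries in 17.6%.

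Those of negative sign were Efl1 (-7.81), Stx18 (-6.48), Blm (-5.90), B3galt6 (-5.57), Bloc1s5 (-5.41), Shprh (-3.79), Pex13 (-3.32), Isg15 (-1.76), Aurkb (-1.71), Rp9 (-1.61) and Dusp6 (-1.49). All 11 were higher in both fresh KO than in both fresh WT libraries, as were 14.5% of all genes. They were picked by a small p and a negative sign of the interaction, which favours that order.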

How the results depend on the processing

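The interaction called 0 genes with RLE scaling, no filter, voom, 12 libraries, the replicate block (506 genes at an unadjusted p under 0.05) and any library left out, and DESeq2 called 182. The WT response called 157 genes with no filter, 717 with DESeq2, 218 with voom, 217 with the replicate block, and 7 (without fresh WT replicate 1) to 421 (without fresh KO replicate 3) with a library left out. The KO response called 161, 909 and 235 with no filter, DESeq2 and the replicate block, and 1 (without stimulated KO replicate 3) to 714 (without fresh KO replicate 4). The average response called 1541 with DESeq2, and 51 to 1871 without the same 2 libraries. The share of responders with the larger response in KO was 52.7% with DESeq2 and 35.5% to 67.1% with a library left out. Each library left out moved at least 1 of these counts by more than 1.5 times. The cause was not tested.

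Same-numbered libraries did not deviate together (correlation of deviations 0.00362 in WT and 0.0119 in KO), so the block rests on shared numbers alone. Of the single-gene values, 1392 kept their sign and side, 33 passed with DESeq2 alone, and 17 changed sign. With voom these were Vpreb1 (-0.65) and Erg (-0.003), with 12 libraries Erg (-0.001) and with the replicate block Erg (-0.011). With a library left out, Cd38 ran from -2.68 to 0.38, Ccl9 from -0.56 to 4.07, Chil3 from -2.27 to 0.70, Vpreb1 from -3.07 to 3.82, Vwf from -0.73 to 9.27, Nadsyn1 from -5.67 to 0.080, Gata3 from -0.26 to 1.96, Erg from -0.42 to 0.35 and Hoxa9 from -2.68 to 0.057. The sign changed without fresh WT replicate 2 for Ccl9, Vpreb1, Vwf and Erg.

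A count of 0 allows a level of up to 3 counts over a group, which is 0.945 CPM in fresh WT and 0.812 CPM in fresh KO, for counting error only.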
